A study of Mus musculus with 2 samples.

Results

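The chemokine genes expressed by 661W cells were examined in RNA sequencing data of 2 libraries. The genes were taken from a list of 10 symbols, namely Cxcl5, Cxcl1, Cxcl10, Cxcl12, Cxcl16, Cx3cl1, Ccl2, Ccl5, Ccl7 and Ccl9. Of these, 9 had a row among the 13281 genes of the deposited table, and Ccl9 was not analysed here. 661W is an immortalized mouse line from a T antigen-driven retinal tumor and is used as a cone photoreceptor model. One library came from 661W cells stably expressing 3xF-TRPM1, the full-length human channel with an N-terminal 3xFLAG tag, and the other from 661W cells stably carrying the empty vector. By the study's methods both constructs were in the retroviral pBABE-Puro vector, and puromycin selection was used to obtain and to keep stable populations, so the control cells carry the vector as well. The labels give normal culture conditions for both. With 1 library per group there was no spread between replicates, so no SD and no p-value is given, and each comparison is between these 2 libraries.

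Chemokines are small proteins that direct the migration of leukocytes by way of G protein-coupled receptors, and they are named by the spacing of their leading cysteines (CXC, CC and CX3C). CXC chemokines with a Glu-Leu-Arg motif before the cysteines, such as Cxcl1 and Cxcl5, attract neutrophils through Cxcr2, whereas Ccl2 and Ccl7 attract monocytes through Ccr2. Most chemokines are secreted, but Cx3cl1 and Cxcl16 are made as transmembrane proteins whose chemokine domain can be shed. In the retina, Cx3cl1 of neurons signals to microglia, and Ccl2 is known for drawing in monocytes during injury.

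Levels are the authors' counts scaled to library size (CPM), and the reads behind each value were worked back from the smallest step between values. The listed genes held 17869838 reads in the 3xF-TRPM1 library and 16404444 reads in the empty vector library. In the 3xF-TRPM1 library the listed reads exceed the size used for scaling, so the values are not scaled to the plain total of reads. Each listed gene was above 1 CPM in both libraries (lowest value 1.02 CPM in each), so genes close to zero on one side carry no value. The log2 fold change was computed as 3xF-TRPM1 over empty vector with a pseudocount of 0.5 CPM and is therefore too small for genes of low level. A gene was called higher or lower at a fold change of at least 1.5, provided that the 95% exact (Clopper-Pearson) interval of the read ratio excluded 1-fold. These intervals use no pseudocount and cover counting error only, since each group had 1 library. Sequenced fragments amplified by PCR are not independent molecules, so the intervals may be too narrow even for counting error. Among markers of cones, 1 of 11 had values, Gnat2 at 2.49 CPM in 3xF-TRPM1 cells and 2.57 CPM in empty vector cells, and the other 10 were not analysed here. Of 10 fibroblast markers, 9 had values, with a summed level of 21946 CPM in 3xF-TRPM1 cells and 13692 CPM in empty vector cells.

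RefSeq promoter sequences on GRCm38.p6 matched 5 of the 10 listed symbols, of which Cxcl1, Cxcl10, Cxcl12 and Cx3cl1 had values. The 250 bases before the RefSeq start of these genes are shown, 5′ to 3′, so that the genes past the fold threshold (Cx3cl1 and Cxcl12) can be set beside genes that did not pass it. For Cx3cl1 the RefSeq start lies inside the gene as placed below, which begins at 94772009. Most of the bases shown for Cx3cl1, and the last few shown for Cxcl1, therefore lie inside the gene positions given below. Capitals mark 2 strings, searched on both strands from 250 bases before to 50 after the start. The first is the longest string of letters common to the upstream sequences of Cxcl1 and its neighbours Cxcl2 and Cxcl3, GGGAATTTCCC, which has the form of an NF-kappaB site. These 3 genes were chosen for this search after matches to NF-kappaB-like letters in their promoters had been seen, so their sharing the string is no result, and it is given as a description. The second is a core of the interferon-stimulated response element, GAAA, any 2 bases and GAAA.
Cx3cl1 (chr8:94771930-94772179, plus strand): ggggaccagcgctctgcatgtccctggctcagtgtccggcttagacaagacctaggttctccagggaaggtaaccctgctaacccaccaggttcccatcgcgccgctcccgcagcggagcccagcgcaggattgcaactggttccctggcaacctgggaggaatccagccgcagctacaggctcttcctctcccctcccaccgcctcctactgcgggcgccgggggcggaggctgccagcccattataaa
Cxcl12 (chr6:117168285-117168534, plus strand): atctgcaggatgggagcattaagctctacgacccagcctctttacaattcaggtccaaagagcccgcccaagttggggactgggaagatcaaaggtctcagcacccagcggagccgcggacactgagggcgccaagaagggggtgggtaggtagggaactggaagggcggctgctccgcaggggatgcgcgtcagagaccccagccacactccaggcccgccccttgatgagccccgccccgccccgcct
Cxcl1 (chr5:90890995-90891244, plus strand): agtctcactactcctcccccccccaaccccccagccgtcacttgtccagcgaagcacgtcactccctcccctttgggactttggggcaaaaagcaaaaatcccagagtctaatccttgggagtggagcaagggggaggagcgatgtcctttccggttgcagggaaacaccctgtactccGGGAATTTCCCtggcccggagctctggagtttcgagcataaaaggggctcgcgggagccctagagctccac
Cxcl10 (chr5:92348890-92349139, minus strand): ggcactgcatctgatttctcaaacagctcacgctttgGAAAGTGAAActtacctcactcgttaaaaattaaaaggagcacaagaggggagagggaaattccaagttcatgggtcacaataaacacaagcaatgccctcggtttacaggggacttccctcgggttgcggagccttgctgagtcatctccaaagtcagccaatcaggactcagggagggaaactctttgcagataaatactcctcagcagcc
The first string was present in Cxcl1 and the second in Cxcl10, and they did not overlap. Only these letters were marked, so a sequence without the first string may hold other forms of an NF-kappaB site. Cx3cl1 and Cxcl12 held neither string in this window. The first string was taken from Cxcl1, Cxcl2 and Cxcl3. Its presence in Cxcl1 was therefore fixed, and the contrast with Cx3cl1 and Cxcl12 is no result. Of 32851 promoters of the same length, 14 (0.0426%) held the first string and 1131 (3.44%) held the second. The 14 include Cxcl1, Cxcl2 and Cxcl3. A stretch of 30 bases around the first string is shown for Cxcl1, Cxcl2 and Cxcl3, because these neighbours share the letters while their levels differed in direction between the libraries.
Cxcl1 (chr5:90891165-90891194, plus strand): ctgtactccGGGAATTTCCCtggcccggag
Cxcl2 (chr5:90903793-90903822, plus strand): ctgagctcaGGGAATTTCCCtggtccccgg
Cxcl3 (chr5:90786019-90786048, plus strand): agctgcgggGGGAATTTCCCcagcccgggc
A match of letters is a description of the sequence, and binding was not measured.

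The chemokine genes did not move in one direction. Cx3cl1 and Cxcl12 were higher in the 3xF-TRPM1 library by more than 1.5-fold, and Cxcl16 was lower, at a level near the lower limit of the table. Cxcl5 and Cxcl1 were higher, and Ccl2 and Ccl7 were lower, by less than 1.5-fold, with intervals that excluded 1-fold. Cxcl10 was at a similar level in both libraries. In all, 2 of 9 were called higher, against 3.91% of all genes, and 1 of 9 was called lower, against 3.07% of all genes. The median log2 fold change was 0.042 over the 9 genes and 0.0093 over all genes. The interval excluded 1-fold in 8 of 9 members, against 42.8% of all genes. This share depends on depth, and it was 66.0% among the 2571 genes whose mean level reached 100 CPM, a limit chosen after the data had been seen that 6 of the members reached.

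**Figure D1:**
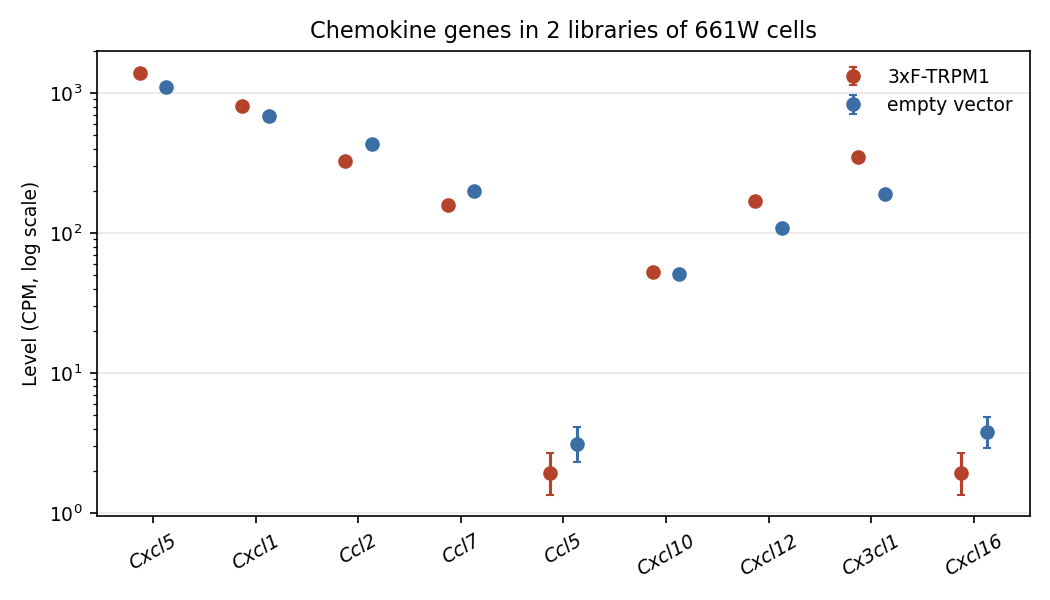
Level of each chemokine gene in CPM (log scale) in the 3xF-TRPM1 library (red) and the empty vector library (blue), 1 library each. Bars are 95% exact Poisson intervals (counting error only), hidden by the point for abundant genes. Cx3cl1 was at 346 CPM in 3xF-TRPM1 cells and 191 CPM in empty vector cells, and Ccl2 at 325 CPM in 3xF-TRPM1 cells and 430 CPM in empty vector cells.

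Cx3cl1, or fractalkine, had the highest log2 fold change of the members. Its gene (ENSMUSG00000031778, GRCm38 chromosome 8, 94772009 to 94782427) had 346 CPM (6108 reads) in 3xF-TRPM1 cells and 191 CPM (3191 reads) in empty vector cells. On the log2 scale the fold change was 0.86, with a 95% counting interval from 0.80 to 0.92. Cxcl12, which is made by stromal cells and acts on Cxcr4, lies on chromosome 6 from 117168535 to 117181367 (ENSMUSG00000061353). It was at 169 CPM (2977 reads) in 3xF-TRPM1 cells and 108 CPM (1801 reads) in empty vector cells. The log2 fold change of Cxcl12 was 0.65 (95% counting interval 0.56 to 0.73). Where the mean level reached 100 CPM, 1.83% of genes were called higher. In the same libraries, 6 of the 9 fibroblast markers with values were called higher and 0 lower, with a median log2 fold change of 0.84. Of 8 Mueller glia markers, 4 had values and 3 were called higher, with a summed level of 1077 CPM in 3xF-TRPM1 cells and 667 CPM in empty vector cells. Slc1a3 held most of this sum, at 819 CPM in 3xF-TRPM1 cells and 527 CPM in empty vector cells. The others called higher were Apoe and Clu, and Glul was called neither, with a log2 fold change of -0.14. Rlbp1, Aqp4, Gfap and Kcnj10 were not analysed here. Among all genes at any level, 3.91% were called higher. The part of these markers in the values of Cxcl12 and Cx3cl1 was not tested. In bulk RNA, a different number of cells of a type and a different amount of RNA per cell cannot be told apart.

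The neutrophil attractants Cxcl5 and Cxcl1 were the members with the most reads. Cxcl5, on chromosome 5 from 90759360 to 90761624 (ENSMUSG00000029371), was at 1398 CPM in 3xF-TRPM1 cells and 1101 CPM in empty vector cells. The difference was 1.27-fold, or 0.35 on the log2 scale (95% counting interval 0.32 to 0.37). Cxcl1, on chromosome 5 from 90891241 to 90893115 (ENSMUSG00000029380), was at 804 CPM in 3xF-TRPM1 cells and 687 CPM in empty vector cells. Here the difference was 1.17-fold, or 0.23 on the log2 scale (95% counting interval 0.19 to 0.26). Both were higher in the 3xF-TRPM1 library, and neither reached the fold threshold.

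The monocyte attractants Ccl2 and Ccl7 were both lower in the 3xF-TRPM1 library. Ccl2, on chromosome 11 from 82035571 to 82037453 (ENSMUSG00000035385), was at 325 CPM (5735 reads) in 3xF-TRPM1 cells and 430 CPM (7198 reads) in empty vector cells. For Ccl2 the log2 fold change was -0.40 (95% counting interval -0.45 to -0.35). Ccl7, which starts 8259 bases after the end of Ccl2 on the same strand (ENSMUSG00000035373, 82045712 to 82047525), was at 158 CPM (2782 reads) in 3xF-TRPM1 cells and 201 CPM (3364 reads) in empty vector cells. Its log2 fold change was -0.35 (95% counting interval -0.42 to -0.28). The ratio of Ccl7 to Ccl2 reads was 0.485 in 3xF-TRPM1 cells and 0.467 in empty vector cells, and the 95% exact interval of the quotient of these ratios, 0.976 to 1.10, included 1.

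Cxcl10 and Ccl5, which act on T cells and natural killer cells, had fewer reads than Ccl2 and Ccl7 in both libraries. Cxcl10, an interferon-induced ligand of Cxcr3 (ENSMUSG00000034855, chromosome 5 from 92346638 to 92348889), was at 52.4 CPM (925 reads) in 3xF-TRPM1 cells and 50.9 CPM (852 reads) in empty vector cells. The log2 fold change of Cxcl10 was 0.042, with a 95% counting interval of -0.094 to 0.18 and with the other sign when the libraries were scaled to their total count (-0.0048). Ccl5, which attracts T cells (ENSMUSG00000035042, chromosome 11 from 83525778 to 83530518), was at 1.93 CPM (34 reads) in 3xF-TRPM1 cells and 3.11 CPM (52 reads) in empty vector cells. Its log2 fold change of -0.57 (95% counting interval -1.36 to -0.04) fell just short of the fold threshold. It passed with a pseudocount of 0.1 CPM (-0.66) and under total count scaling (-0.61).

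Cxcl16, the transmembrane ligand of Cxcr6 (ENSMUSG00000018920, chromosome 11 from 70453983 to 70459984), was at 1.93 CPM (34 reads) in 3xF-TRPM1 cells and 3.77 CPM (63 reads) in empty vector cells. For Cxcl16 the log2 fold change was -0.81 (95% counting interval -1.61 to -0.34), the lowest of the members. Exons of Zmynd15 on the opposite strand cover 18.3% of the Cxcl16 exon bases. Since the strand setting of the counting is not given in the sources used here, reads of Cxcl16 and Zmynd15 cannot be told apart in that stretch. Art3 likewise covers 5.91% of the Cxcl10 exon bases, and exons of the other 7 members overlapped no other gene. Of the leukocyte markers, Cd14 was at 6.12 CPM in 3xF-TRPM1 cells and 11.1 CPM in empty vector cells, and Cd68 was at 2.95 CPM in 3xF-TRPM1 cells and 4.84 CPM in empty vector cells. Both were called lower, against 3.07% of all genes. Their summed level was 9.07 CPM in 3xF-TRPM1 cells and 15.9 CPM in empty vector cells. The other 10 of 12 leukocyte markers, including Ptprc, were not analysed here, and the part of the markers in the values of Ccl2, Ccl7, Ccl5 and Cxcl16 was not tested.

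**Figure D2:**
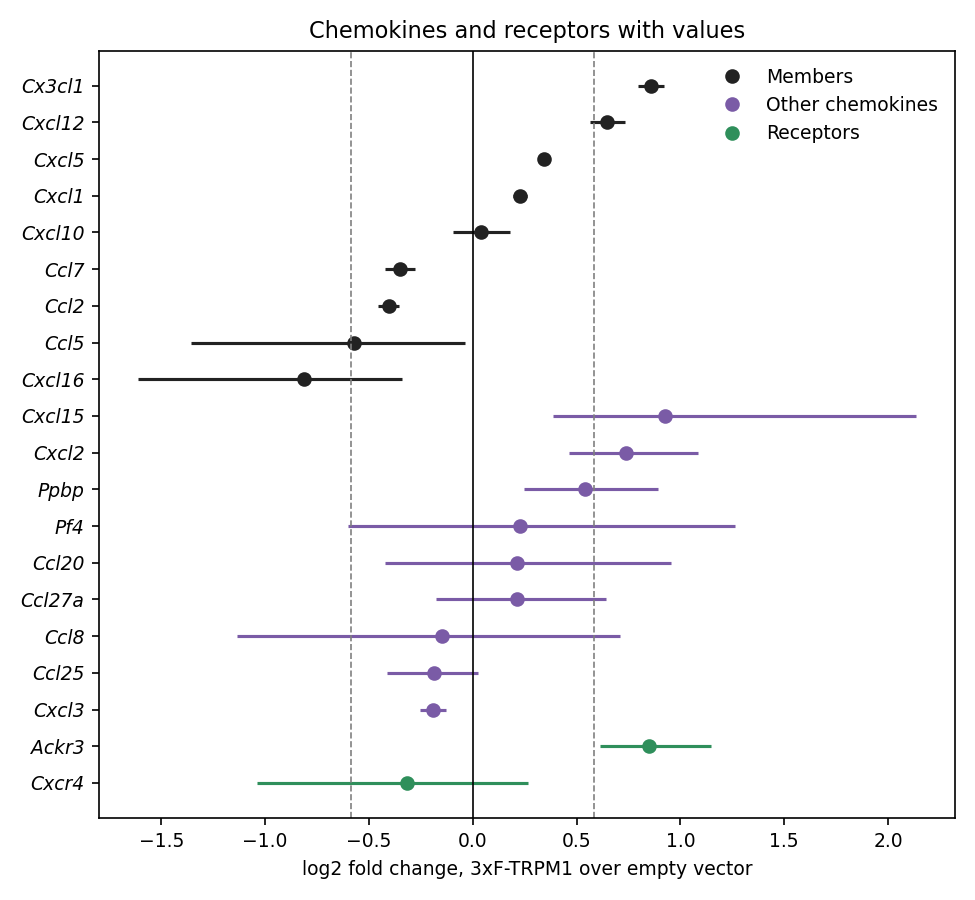
The log2 fold change, 3xF-TRPM1 over empty vector, of the 9 members (black), 9 other chemokines (purple) and 2 chemokine receptors (green) with values, with 95% counting intervals of the read ratio, which use no pseudocount and so are not centred on the points of low genes. Dashed lines mark 1.5-fold. Cx3cl1 (0.86) and Cxcl12 (0.65) lie beyond the upper line and Cxcl16 (-0.81) beyond the lower line.

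**Figure D3:**
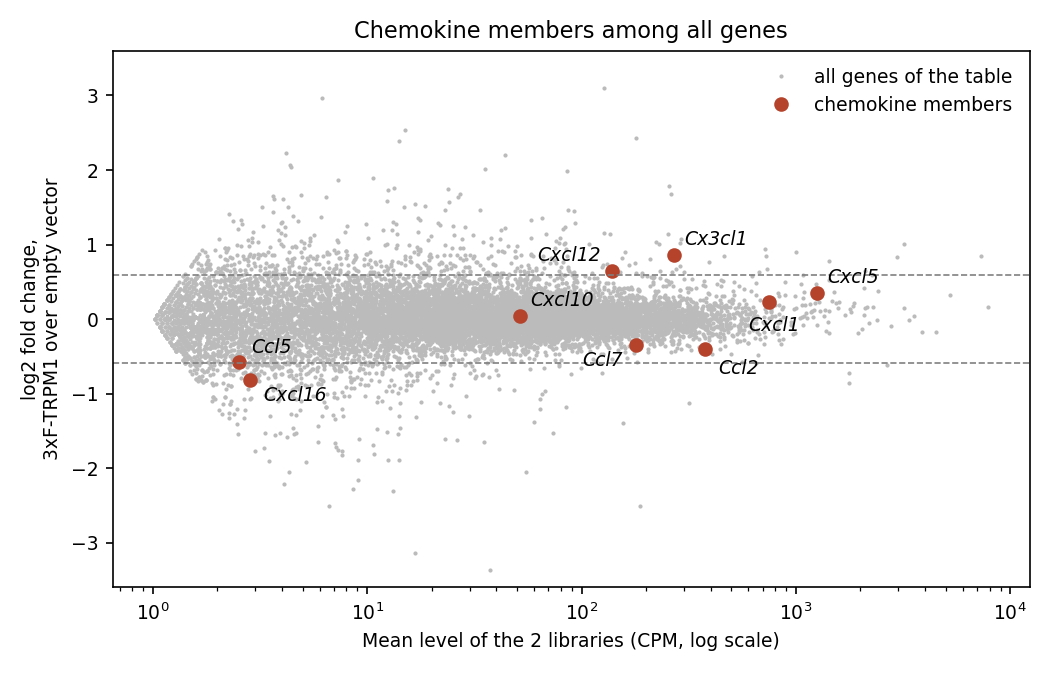
The log2 fold change, 3xF-TRPM1 over empty vector, against the mean level in CPM (log scale) for all 13281 genes (grey) and the 9 members (red), with dashed lines at 1.5-fold. Cx3cl1 and Cxcl12 lie above the upper line at a level at which 1.83% of genes were called higher.

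The order of the members was compared per length, as CPM per kilobase of exon, since CPM grows with gene length. Cxcl5 was first in both libraries, at 750.5 in 3xF-TRPM1 cells and 591 in empty vector cells. By this measure it stood at percentile 99.9 of the listed genes in 3xF-TRPM1 cells and 99.8 in empty vector cells. In 3xF-TRPM1 cells Cxcl1 followed at 429 and Ccl2 at 286, and their 95% exact Poisson intervals did not overlap. In empty vector cells Ccl2 stood at 378 and Cxcl1 at 366, and these 2 intervals overlapped. Ccl7 came next, at 197 in 3xF-TRPM1 cells and 251 in empty vector cells, then Cx3cl1, at 88.1 in 3xF-TRPM1 cells and 48.5 in empty vector cells. The order ended with Cxcl10, Cxcl12, Ccl5 and Cxcl16 in both libraries. Cxcl10 stood at 23.3 in 3xF-TRPM1 cells and 22.6 in empty vector cells, and Cxcl12 at 20.6 in 3xF-TRPM1 cells and 13.2 in empty vector cells. No other pair of neighbours in either order had overlapping intervals. The length of Cxcl12 in the table, 8176 bases, is the union of the exons of all its transcripts, so its level per length is understated where a shorter transcript is used.

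Ratios between members inside a library do not depend on how the libraries were scaled. The ratio of Cx3cl1 to Ccl2 reads was 1.07 in 3xF-TRPM1 cells and 0.443 in empty vector cells. The quotient of these ratios was 2.40 (95% exact interval 2.27 to 2.54). Cx3cl1 had the highest log2 fold change of the members and Ccl2 was lower, so a quotient above 1 follows from the values above. For Cxcl12 to Ccl2 the ratio was 0.519 in 3xF-TRPM1 cells and 0.250 in empty vector cells, a quotient of 2.07 (95% exact interval 1.94 to 2.22). Cxcl5 also stood higher relative to Ccl2, with 4.30 reads per Ccl2 read in 3xF-TRPM1 cells and 2.56 in empty vector cells. For Cxcl1 to Ccl2 the quotient was 1.55 (95% exact interval 1.49 to 1.62). Cxcl10, at a similar level in both libraries, had a quotient to Ccl2 of 1.36 (95% exact interval 1.23 to 1.51), so the lower Ccl2 enters each of these quotients. The ratio of Cxcl5 to Cxcl1 differed less, at 1.74 in 3xF-TRPM1 cells and 1.60 in empty vector cells (quotient 1.08, 95% exact interval 1.05 to 1.12).

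The 9 members together were at 3256 CPM in 3xF-TRPM1 cells and 2775 CPM in empty vector cells, a 1.17-fold difference. This was 0.321% of the listed reads in 3xF-TRPM1 cells (95% Clopper-Pearson interval 0.319 to 0.324%) and 0.283% in empty vector cells (95% Clopper-Pearson interval 0.280 to 0.286%). Cxcl5 and Cxcl1 held 67.6% of the members' reads in 3xF-TRPM1 cells and 64.4% in empty vector cells. Ccl2 and Ccl7 held 14.8% in 3xF-TRPM1 cells and 22.8% in empty vector cells. Cx3cl1 held 10.6% in 3xF-TRPM1 cells and 6.87% in empty vector cells, so the balance differed between CC members, with the smaller share in 3xF-TRPM1 cells, and Cx3cl1, with the larger. Without Cxcl5, the summed level of the other members was 1.11-fold higher.

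**Figure D4:**
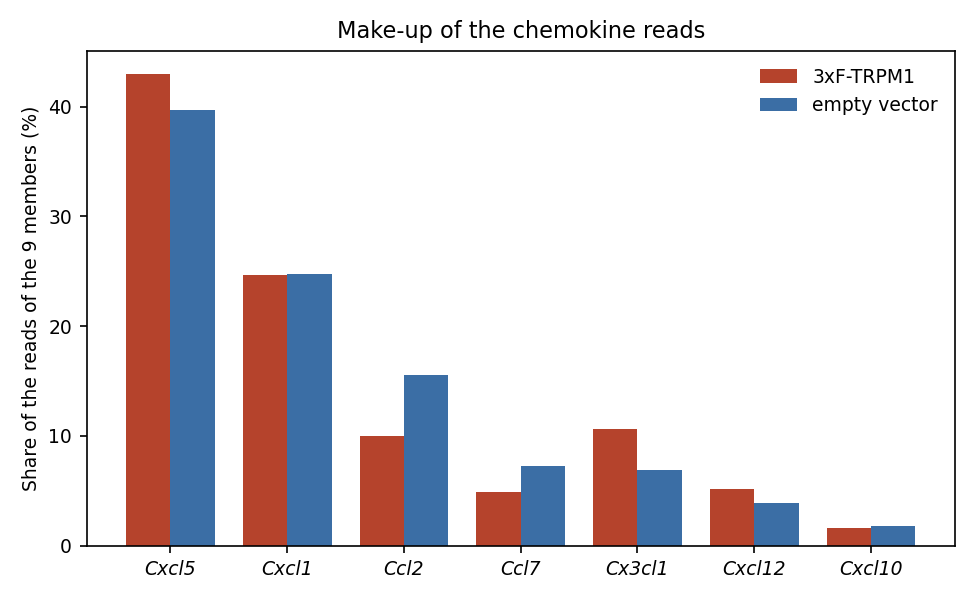
Share of the reads of all 9 members taken by each of the 7 most abundant ones, in percent, in the 3xF-TRPM1 library (red) and the empty vector library (blue), 1 library each. Ccl2 held 9.98% in 3xF-TRPM1 cells and 15.5% in empty vector cells. Ccl5 and Cxcl16, at most 0.136%, are not drawn.

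Of 28 other mouse chemokines, 9 had values and the other 19 were not analysed here. Of these 9, 2 were called higher, against 3.91% of all genes, and 0 lower, against 3.07%. For 5 of them the interval included 1-fold. Cxcl2 was at 13.9 CPM in 3xF-TRPM1 cells and 8.13 CPM in empty vector cells, a log2 fold change of 0.74. Cxcl15, a neutrophil attractant known from mouse lung, was at 2.38 CPM (42 reads) in 3xF-TRPM1 cells and 1.02 CPM (17 reads) in empty vector cells, at the lower limit of the table. Cxcl3, a further neutrophil attractant, went the other way, at 232 CPM in 3xF-TRPM1 cells and 266 CPM in empty vector cells, with a log2 fold change of -0.19 and a 95% counting interval from -0.25 to -0.13. The platelet chemokine Ppbp was at 12.0 CPM in 3xF-TRPM1 cells and 8.07 CPM in empty vector cells, a log2 fold change of 0.54. The intervals of Pf4, Ccl8, Ccl20, Ccl25 and Ccl27a included 1-fold.

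These CXC genes form a cluster with 2 of the members. Cxcl5, Ppbp, Pf4, Cxcl3, Cxcl15, Cxcl1 and Cxcl2 follow one another on the plus strand of chromosome 5 between 90759360 and 90905938, and all 7 had values. Their summed level was 2464 CPM in 3xF-TRPM1 cells and 2071 CPM in empty vector cells. Without Cxcl5 and Cxcl1 the sum was 262 CPM in 3xF-TRPM1 cells and 284 CPM in empty vector cells, since Cxcl3 held most of those reads. Relative to Cxcl1 reads, Cxcl3 reads were 0.289 in 3xF-TRPM1 cells and 0.387 in empty vector cells, a quotient of 0.747 (95% exact interval 0.711 to 0.785). The quotient of Cxcl2 to Cxcl1 was 1.46 (95% exact interval 1.18 to 1.81). Cxcl1, Cxcl2 and Cxcl3, which share the string printed above, had log2 fold changes of 0.23, 0.74 and -0.19 in that order. On chromosome 11, 3 of the 6 genes of the cluster that holds Ccl2 and Ccl7 had values, the third being Ccl8, at 1.19 CPM in 3xF-TRPM1 cells and 1.37 CPM in empty vector cells.

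**Figure D5:**
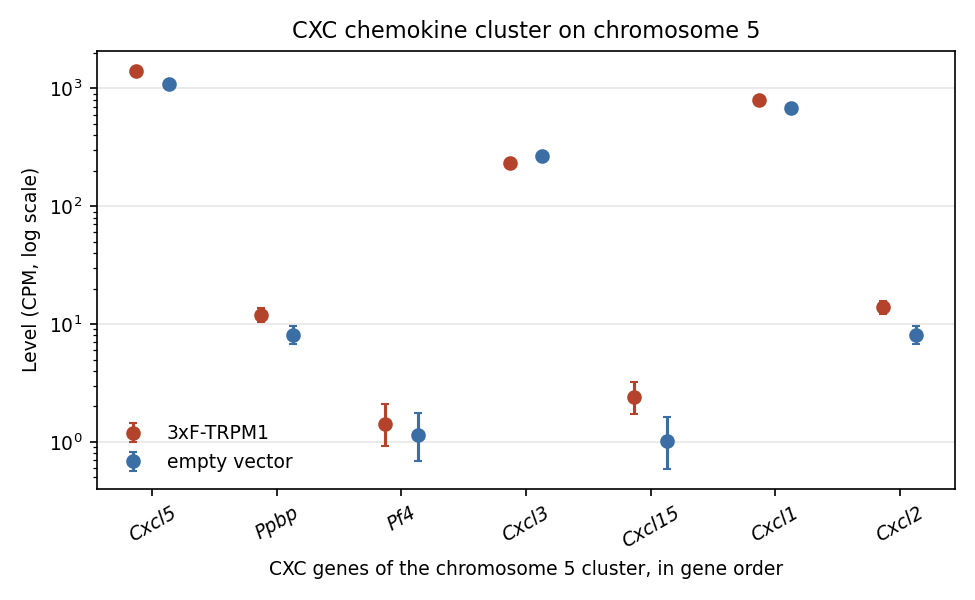
Level in CPM (log scale) of the 7 CXC genes of the chromosome 5 cluster, in gene order, in the 3xF-TRPM1 library (red) and the empty vector library (blue). Bars are 95% exact Poisson intervals. Cxcl3 is lower in 3xF-TRPM1 cells (232 CPM) than in empty vector cells (266 CPM), while the points of the other 6 genes are higher, with Pf4 inside its counting error.

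Of 23 chemokine receptors, 2 had values, and both bind Cxcl12. Ackr3, an atypical receptor that takes up and removes Cxcl12, was at 19.3 CPM (341 reads) in 3xF-TRPM1 cells and 10.5 CPM (176 reads) in empty vector cells. On the log2 scale this was a difference of 0.85 (95% counting interval 0.61 to 1.15). The signalling receptor Cxcr4 was at 2.15 CPM (38 reads) in 3xF-TRPM1 cells and 2.81 CPM (47 reads) in empty vector cells, and its interval, -1.04 to 0.26, included 1-fold. The receptors of the other members, among them Cxcr2, Ccr2, Cxcr3 and Cx3cr1, were not analysed here.

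Of 15 genes that process or present chemokines, 14 had values, 0 were called higher and 1 lower, and their median log2 fold change was 0.046. Among all genes, 3.91% were called higher and 3.07% lower. Adam17, a sheddase of Cx3cl1, was at 277 CPM in 3xF-TRPM1 cells and 204 CPM in empty vector cells, a log2 fold change of 0.44. Adam10, which sheds Cx3cl1 and Cxcl16, was at 302 CPM in 3xF-TRPM1 cells and 288 CPM in empty vector cells. The gene called lower was Sdc3, a heparan sulfate proteoglycan, at 30.2 CPM in 3xF-TRPM1 cells and 50.9 CPM in empty vector cells, with a log2 fold change of -0.75 and a 95% counting interval from -0.91 to -0.60. Among the other heparan sulfate proteoglycans of the syndecan family, Sdc4 was at 426 CPM in 3xF-TRPM1 cells and 418 CPM in empty vector cells, and Sdc2 at 299.7 CPM in 3xF-TRPM1 cells and 280.1 CPM in empty vector cells. The heparan sulfate polymerase Ext1 was at 253 CPM in 3xF-TRPM1 cells and 266 CPM in empty vector cells, and the heparan sulfate sulfotransferase Ndst1 at 194 CPM in 3xF-TRPM1 cells and 197 CPM in empty vector cells.

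All 23 genes of a list of chemokine gene regulators, which holds NF-kappaB subunits, kinases and inhibitors, interferon-signalling factors, Cebpb, Cebpd and Hif1a, had values. Of these, 2 were called higher, against 3.91% of all genes, and 0 lower, against 3.07%. The median log2 fold change of the 23 genes was 0.036. The NF-kappaB subunit Nfkb1 was at 219 CPM in 3xF-TRPM1 cells and 210.2 CPM in empty vector cells, and Rela was at 122 CPM in 3xF-TRPM1 cells and 131 CPM in empty vector cells. The inhibitor Nfkbia was at 112 CPM in 3xF-TRPM1 cells and 99.7 CPM in empty vector cells, and its atypical relative Nfkbiz at 146 CPM in 3xF-TRPM1 cells and 151 CPM in empty vector cells. Chuk, a kinase of the pathway, was at 119.9 CPM in 3xF-TRPM1 cells and 118 CPM in empty vector cells. Hif1a, an oxygen-regulated factor, had the most reads of the list and was at 1650 CPM in 3xF-TRPM1 cells and 1486 CPM in empty vector cells. Both genes called higher belong to interferon signalling. Stat2 was at 110.0 CPM in 3xF-TRPM1 cells and 61.2 CPM in empty vector cells, a log2 fold change of 0.84. Irf1 was at 66.3 CPM in 3xF-TRPM1 cells and 43.0 CPM in empty vector cells, with a log2 fold change of 0.62, and lost its call under total count scaling. Irf9 (0.58) and Irf7 (0.51) were just under the fold threshold, with intervals above 1-fold. Beside these values, the interferon-inducible chemokine Cxcl10 had a log2 fold change of 0.042 and Ccl5 one of -0.57.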

How the data were processed

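RNA of 661W cells was measured as 1 library of 3xF-TRPM1 cells and 1 of empty vector cells. By the methods and the submitters' processing notes, the authors used HISAT2 2.1.0 for alignment to GRCm38, featureCounts 2.0.0 for counting, edgeR 3.28.1 for import and a package named as DESeq 1.40.0 for analysis. The annotation release is not given in the sources used here. The deposited CPM values, as the authors scaled them, were used. Every value was a whole multiple of 1 step (0.0567 CPM for 3xF-TRPM1, 0.0598 CPM for empty vector) within 0.01 of a step in 100% of genes, which gave the reads. The deposited log2 fold changes and p-values, 2 columns that repeat the CPM values, and the authors' enrichment scores were not used. The gene lengths by the authors equal the union of GENCODE M21 exons in 99.95% of genes.

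Members and lists were chosen with earlier results of these data known. All members, and all other chemokines and receptors with values, are named. Of the processing genes and the regulators, those past 1.5-fold or among the 6 with the highest mean level are named, with a few chosen after their values were seen (Irf9, Irf7 and Nfkbie). Cell type markers are given as counts and sums, apart from Gnat2, Cd14, Cd68 and the Mueller glia markers, which were named after their values were seen. A mean of at least 1 CPM was required, which removed 0 genes. Calls and intervals were tested on simulated Poisson reads, which hold counting error only and no difference between cultures. Alternatives were median-of-ratios size factors, total count, pseudocounts of 0.1 and 1 CPM, a filter at 5 CPM or none, and a 2-fold threshold. Software was scipy 1.17.1, numpy 2.4.6, pandas 2.3.3 and matplotlib 3.10.9 under Python 3.11.15.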

Additional observations from a re-analysis of the deposited data

How the results depend on the processing

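Under the settings that keep the 1.5-fold threshold, 49 of 52 recomputed log2 fold changes of the 9 members kept their direction and their side of it. The 52 include the values under a filter at 5 CPM and under no filter. A filter does not enter a log2 fold change, so the agreement of those values was fixed in advance. The only change of sign was that of Cxcl10, -0.0048 under total count scaling. A 2-fold threshold left 0 members higher and 0 lower, 0 other chemokines higher, 0 receptors higher, 0 regulators of chemokine genes higher and 0 processing genes lower. Total count scaling gave 2 members lower (Ccl5 being added), and 1 regulator higher and 1 lower (Nfkbie, an NF-kappaB inhibitor, named after its values were seen). A mean of at least 5 CPM left 0 members lower and 1 other chemokine higher, since fewer genes were tested. A pseudocount of 0.1 CPM gave 2 members lower. The summed level of the members was higher under each scaling, with log2 ratios of 0.18 to 0.23. Size factors shifted the log2 ratio of the libraries by -0.0096 and total count by -0.047, and the pseudocount made the shift smaller for genes of low level. No paired analysis was possible because each group had 1 library. Depth limits Cxcl16 and Ccl5, with 34 reads each in 3xF-TRPM1 cells, and with 1 culture each, TRPM1 and any other way in which the cultures differed cannot be told apart.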
